A study of Homo sapiens with 12 samples.

Results

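The sites described here lie on the plus strand of the human mitochondrial genome (build hg19, chrM) with their midpoint above position 3240, beyond both ribosomal RNA genes. They were selected by position and strand from the 6 replicate lists of protein-protected sites of the study. In all, 238 of the 513381 sites in these lists met the rule. No site spanned the limit in any list. The nearest site outside ended at 3233 and the nearest inside started at 3274, both in dsRNase replicate 2.

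The lists come from protein interaction profile sequencing, which sequences the RNA left under cross-linked protein after a ribonuclease has digested a lysate. All samples were HEK293T, a cell line of human embryonic kidney origin, fixed with 1% formaldehyde for 10 minutes. RNase ONE, the ssRNase, cleaves unpaired RNA, and RNase V1, the dsRNase, cleaves paired RNA. There were 12 libraries in 4 groups, 3 replicates in each: footprints for either nuclease, in which it met RNA with its protein, and digestion controls, in which SDS and proteinase K had first stripped the protein. Each list holds the sites in which a footprint library exceeded its control at a false discovery rate of 5%, so that the 12 libraries enter as 3 ssRNase and 3 dsRNase lists.

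In all, 209922, 57481 and 172079 sites were listed for ssRNase replicates 1 to 3, and 23925, 28413 and 21561 for dsRNase. The lists give positions and scores but no read counts, so the depth behind a site is unknown. RNA amount and protection per molecule cannot be told apart, and the labelled cell type cannot be checked against marker levels. One line was used. Separate cultures are not stated for the replicates, and the spread that each p-value is based on may be technical. A comparison of 3 lists with 3 by the two-sided exact permutation test used below cannot go under p = 0.1.

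Both strands of mitochondrial DNA are transcribed almost from end to end. The plus-strand sequence of the reference corresponds to the transcript that carries the ribosomal RNAs, most messenger RNAs and most transfer RNAs. Transfer RNAs stand between the messenger RNAs and are cut out by RNase P and ELAC2, which releases the messengers, a scheme known as tRNA punctuation. The transcript of the other strand carries ND6 and 8 transfer RNAs, and most of its remaining length is antisense RNA that is degraded. Where such a gene lies, the plus-strand transcript carries its complement, which encodes no known product. Messenger RNAs are bound by the LRPPRC-SLIRP complex, by mitochondrial ribosomes and by other factors.

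The following sequences serve to place the results. In the first 3, transfer RNAs of the other strand, the plus-strand site lay on the complement of the sequence shown, and the capitals mark the anticodon. They read for glutamate (TE), proline (TP) and glutamine (TQ). In the fourth, a plus-strand stretch in which the reading frames of ATP8 and ATP6 overlap, the capitals mark the start codon of ATP6 and the stop codon of ATP8. This stretch was protected with both nucleases. All are given 5′ to 3′ from GENCODE release 29 transcripts by gene name.
MT-TE: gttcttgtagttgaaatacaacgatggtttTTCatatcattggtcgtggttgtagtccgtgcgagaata
MT-TP: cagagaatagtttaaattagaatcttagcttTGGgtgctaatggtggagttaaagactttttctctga
MT-TQ: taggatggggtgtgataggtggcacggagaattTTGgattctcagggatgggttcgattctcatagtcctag
stretch shared by MT-ATP8 and MT-ATP6: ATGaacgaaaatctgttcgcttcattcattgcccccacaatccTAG

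Protected sequence on this transcript was far more extensive with dsRNase than with ssRNase. The ssRNase lists held 16, 2 and 10 sites covering 658, 84 and 379 bases. The dsRNase lists held 54, 85 and 71 sites covering 2606, 4643 and 3834 bases. The lowest dsRNase list lay above the highest ssRNase list in both measures. The mean was 373.7 ± 287 bases (SD, n = 3) with ssRNase and 3694 ± 1026 (SD, n = 3) with dsRNase, a ratio of 9.89 (exact permutation p = 0.1, the smallest possible).

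This difference ran against the length of the lists, since the ssRNase lists were the longer ones. Per 1000000 site bases of its list, the transcript took 64.55, 28.82 and 46.78 bases with ssRNase and 3165, 4742 and 4799 with dsRNase. The means of 46.72 ± 17.9 and 4235 ± 928 (SD, n = 3 each) differed 90.7-fold (exact permutation p = 0.1). Other mitochondrial parts were also higher with dsRNase on this scale. The ribosomal RNA region took 68.57, 147.5 and 54.8 with ssRNase and 2945, 2548 and 3079 with dsRNase. The minus strand of the same positions took 733.9, 871 and 402.5 with ssRNase and 3726, 3896 and 4525 with dsRNase. Sites and sums of bases carry no correction for library depth.

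Sites on this transcript were longer than usual for their list with dsRNase and shorter with ssRNase. Median lengths were 46, 48 and 45 nt with dsRNase, in lists whose medians were 33, 33 and 34 nt. With ssRNase they were 35.5, 42 and 39.5 nt, in lists with medians of 43, 44 and 42 nt. The dsRNase medians stood 13 ± 2 nt from that of their own list and the ssRNase medians -4 ± 3.04 nt (SD, n = 3 each, exact permutation p = 0.1). The direct difference in median length, 7.333 nt, turned to -6.667 nt (p = 0.4, exact permutation test) when the same number of best-scoring sites was taken from every list, which left 3, 2 and 3 sites with ssRNase. By score, with ties ranked upward, the median percentiles of the sites were 53, 70.5 and 65.4 for ssRNase and 68.3, 67.1 and 73.3 for dsRNase, which overlap. That of ssRNase replicate 1 lay near the middle of its list and the others higher, with ssRNase replicate 2 resting on 2 sites. The longest site of the region spanned 229 nt, from 7729 to 7957 in CO2 in dsRNase replicate 2, and the longest ssRNase site 74 nt, on the complement of TE in replicates 1 and 3 alike.

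**Figure D1:**
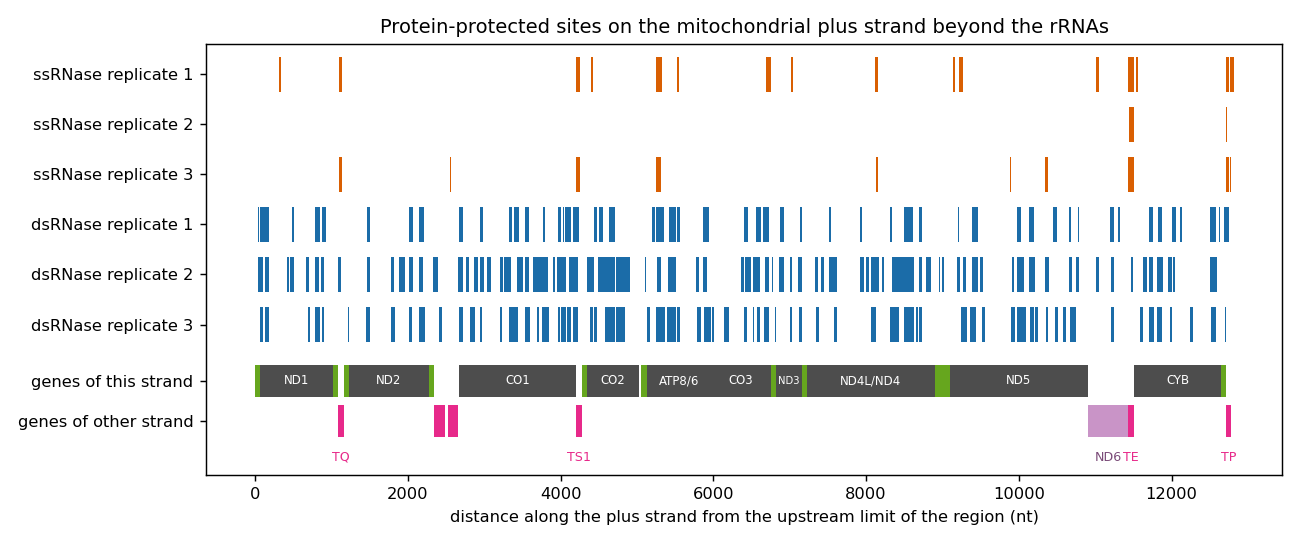
Sites of each replicate list along the plus strand, with distance from the upstream limit of the region in nt on the horizontal axis and one row per list. Genes of this strand (protein genes grey, transfer RNAs green) and of the other strand (pink, ND6 mauve) are drawn below. The dsRNase lists hold 54 to 85 sites spread over every protein gene, and the ssRNase lists 2 to 16, several of them on the complement of other-strand transfer RNAs.

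The protein genes were covered with dsRNase in every one of 10 intervals and every list. Overlapping reading frames (ATP8 with ATP6, ND4L with ND4) were treated as 1 interval each. In 10 of 10 intervals the lowest dsRNase list had more covered positions than the highest ssRNase list (exact permutation p = 0.1 each). With the better-scoring 50% of the sites of each list this held for 9 of 10, since the lists overlapped in CO2 (exact permutation p = 0.4). Among all stranded windows of 1000 nt with a site in at least 3 lists, 1.13% were ordered this way by site bases, and 9.43% by site bases per 1000000. Together the protein genes were covered over 22.4%, 39.8% and 34.1% of their length with dsRNase, and over 3.59%, 0% and 1.4% with ssRNase.

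Cytochrome c oxidase (complex IV) passes electrons to oxygen, and its 3 mitochondrial subunits form the catalytic core. CO1, which holds the haem and copper site where oxygen is reduced, had 446, 947 and 681 covered positions with dsRNase and 10, 0 and 0 with ssRNase. CO2, the subunit that takes electrons from cytochrome c, had 152, 502 and 336 with dsRNase and 31, 0 and 0 with ssRNase. CO3, a structural subunit, had 188, 242 and 266 with dsRNase and 62, 0 and 0 with ssRNase. The mean covered share with dsRNase was 44.8% ± 16.3 for CO1, 48.2% ± 25.6 for CO2 and 29.6% ± 5.1 for CO3 (SD, n = 3 each). Replicates of CO2 ranged from 22.2% to 73.4%, so that its rank as the most covered gene lies within the spread.

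ATP8 and ATP6 encode subunits of the membrane part of ATP synthase, and ATP6 lines the proton path. Their joint interval had 345, 256 and 466 covered positions with dsRNase and 106, 0 and 58 with ssRNase. The dsRNase lists covered 42.3% ± 12.5 of it on average and the ssRNase lists 6.5% ± 6.31 (SD, n = 3 each). The ssRNase share was the highest among the protein genes, although 1 of the 3 lists had no site there.

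ND1 to ND6 and ND4L are the mitochondrially encoded subunits of complex I, which oxidises NADH and pumps protons and draws most of its subunits from nuclear genes. ND1, at the joint of the membrane arm with the quinone site, had 255, 291 and 207 covered positions with dsRNase and 29, 0 and 0 with ssRNase. ND2, an antiporter-like membrane subunit, had 141, 259 and 216 with dsRNase and none in any ssRNase list. ND3, a small subunit near the quinone cavity, had 83, 146 and 75 with dsRNase and 24, 0 and 0 with ssRNase. The joint ND4L/ND4 interval had 239, 769 and 459 with dsRNase and 32, 0 and 36 with ssRNase. ND5, the most distal antiporter-like subunit, had 312, 530 and 658 with dsRNase and 74, 0 and 57 with ssRNase. Mean covered shares with dsRNase ran from 19.7% ± 5.73 for ND2, the lowest of the protein genes, to 29.3% ± 11.2 for ND3 and 29.3% ± 16 for ND4L/ND4 (SD, n = 3 each).

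CYB encodes cytochrome b, the mitochondrial subunit of complex III, which passes electrons from ubiquinol to cytochrome c. It had 258, 362 and 319 covered positions with dsRNase and 20, 0 and 0 with ssRNase. Its mean covered share was 27.4% ± 4.58 with dsRNase (SD, n = 3).

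Summed by complex, a grouping chosen after the values were seen, dsRNase covered 26.1%, 56.2% and 42.6% of complex IV genes and 41%, 30.4% and 55.4% of the ATP synthase interval. It covered 17.7%, 34.3% and 27.7% of complex I genes on this strand and 22.6%, 31.7% and 28% of CYB. The ranges of all 4 overlap. Within each dsRNase list, complex IV and ATP synthase stood above complex I except in replicate 2, where the ATP synthase interval lay below it.

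**Figure D2:**
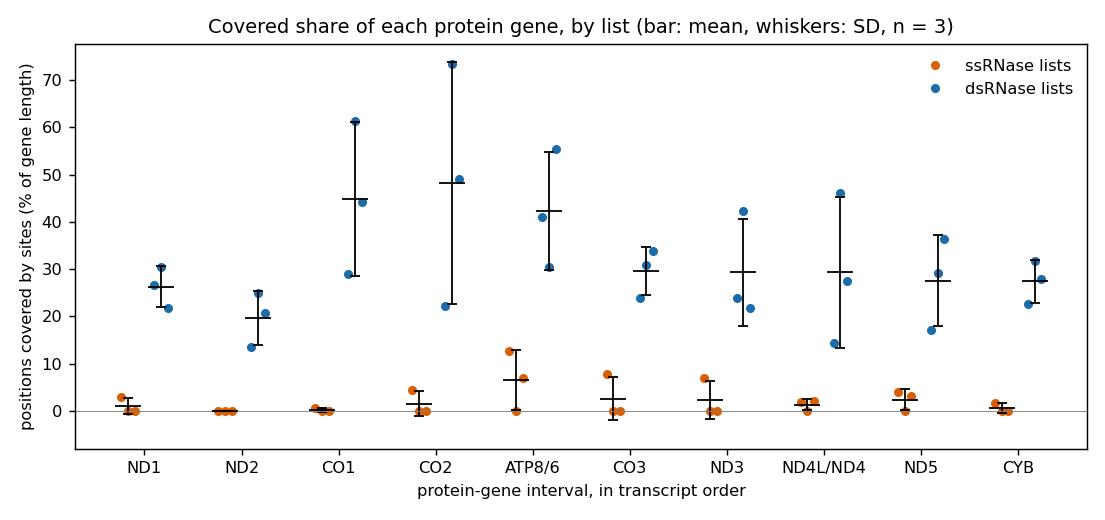
Covered share of each protein gene, in percent of its length, by list. Points are lists, horizontal bars means and whiskers SD (n = 3). In all 10 intervals each dsRNase point lies above each ssRNase point, and the dsRNase means run from 19.7% in ND2 to 48.2% in CO2 with overlapping spreads.

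The protein genes made up most of what dsRNase lists covered and a smaller, uneven part of what ssRNase lists covered. They took 92.8%, 92.7% and 96.1% of the covered bases with dsRNase and 59%, 0% and 39.8% with ssRNase (exact permutation p = 0.1). The complement of the 9 other-strand genes took 5.37%, 4.72% and 2.53% with dsRNase and 36.2%, 95.2% and 58.8% with ssRNase. These means of 4.206% ± 1.49 and 63.42% ± 29.8 (SD, n = 3 each) did not overlap (exact permutation p = 0.1). In positions rather than shares the complement did not separate the nucleases, with 238, 80 and 223 for ssRNase and 140, 219 and 97 for dsRNase (exact permutation p = 0.7). The shift in composition thus came with the difference over protein genes, and ssRNase replicate 2 rested on 2 sites.

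**Figure D3:**
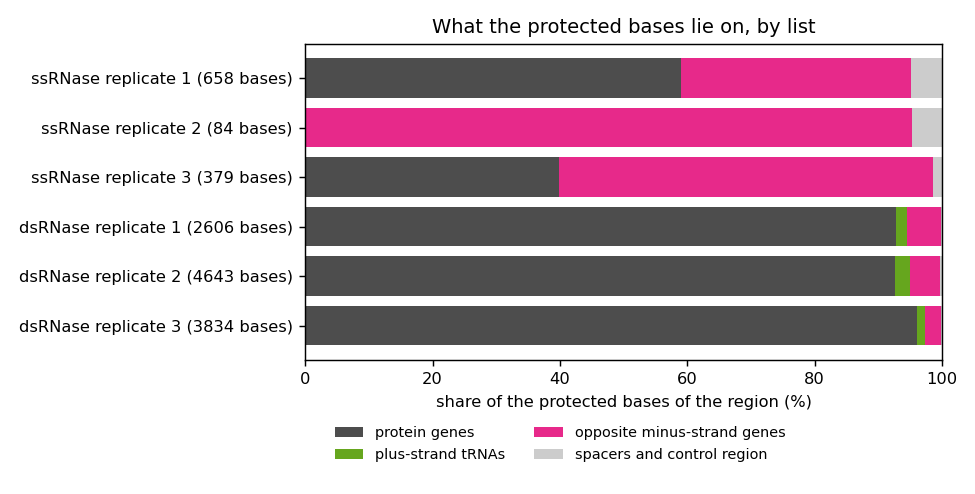
Composition of the covered bases of each list, in percent, split into protein genes, plus-strand transfer RNAs, sequence opposite other-strand genes, and spacers with the control region. Protein genes fill 92.7% to 96.1% of the dsRNase bars and 0% to 59% of the ssRNase bars, whose other main part, 36.2% to 95.2%, lies opposite other-strand genes.

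Transfer RNAs of this strand were sparsely covered, and no ssRNase list had a covered position in any of the 12. With dsRNase 43, 108 and 49 positions of 806 were covered, in 9 of 12 genes across lists. TL1, which reads leucine codons and lies between 16S rRNA and ND1, had 20, 20 and 7 covered positions of 65 and was the one transfer RNA covered in all 3 dsRNase lists. TG, for glycine, had 0, 22 and 18. TS2, for serine, had 0, 33 and 0. TT, for threonine, had 23, 0 and 13, and TM, for methionine, had 0, 0 and 11. Most therefore rested on 1 or 2 lists, and TL1 was the 1 of 12 in which the nucleases did not overlap. That order of TL1 is one of covered positions. By midpoint it held 1, 1 and 0 dsRNase sites. Its 7 positions in replicate 3 were the edge of a site, 3299-3342, with 35 nt in ND1. Of all tested windows of 1000 nt, 1.13% had every dsRNase list above every ssRNase list by site bases and 9.43% per 1000000 site bases. Windows take whole sites by midpoint, so these shares are not measured as the order of TL1 was. Relative to the protein genes of the same list, coverage of transfer RNAs overlapped between nucleases (difference of log2 ratios -0.7449 with a pseudocount of 1 percentage point, exact permutation p = 0.4). The ssRNase ratios rest on the pseudocount, since no transfer RNA position was covered, and the difference depended on the sites taken. It was -0.1685 without ssRNase replicate 2, -1.876 with the better-scoring 50% of sites and -1.595 with the same number of sites from every list, and in the last 2 settings the lists did not overlap (exact permutation p = 0.1 each).

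The complement of TE was the most regular ssRNase feature of the transcript. It had 69, 64 and 69 covered positions of 69 with ssRNase and 0, 23 and 0 with dsRNase. It was the one interval of the region in which every ssRNase list exceeded every dsRNase list (exact permutation p = 0.1). Of all tested windows 61.7% had that order by site bases. Per 1000000 site bases the order did not hold for TE, where dsRNase replicate 2 had the highest value, 23.49, while 43.1% of windows had it on that scale. The site there was the best-scoring one of the region in ssRNase replicates 1 and 2.

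The other complements varied more between lists. Opposite TP, ssRNase lists covered 49, 16 and 49 positions and dsRNase lists 37, 0 and 0. Opposite TQ the ssRNase lists covered 41, 0 and 47 and the dsRNase lists 0, 39 and 0. Opposite TS1, the serine transfer RNA beside the end of CO1, they covered 43, 0 and 45 against 31, 27 and 25. All of these overlapped between nucleases. Opposite ND6, the one protein gene of the other strand, dsRNase lists covered 72, 80 and 38 positions and ssRNase lists 36, 0 and 1. These did not overlap (exact permutation p = 0.1), though the lowest dsRNase value, 38, lay close to the highest ssRNase value, 36. Of all tested windows 1.13% had that order by site bases and 9.43% per 1000000 site bases.

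Both strands of the 20 transfer RNA genes were then compared, a step chosen after the complements had been seen. With ssRNase the strand of the transfer RNA itself had no covered position in any gene and any list. Its opposite strand was covered in 13 of 20 genes, over 37.3%, 20.1% and 39.3% of all positions, and in 6 genes in every ssRNase list. Beside TE these included TK, for lysine, with its opposite strand covered over 70, 70 and 70 of 70 positions, and TS2 with 59, 59 and 59 of 59. With dsRNase the transfer RNA strand was covered in 13 of 20 genes, over 9.5%, 14.5% and 10.2%, and the opposite strand in 12, over 13%, 17.5% and 11.6%. TE itself had 46, 50 and 46 covered positions on its own strand with dsRNase.

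Up to position 3240, where the ribosomal RNAs lie on the plus strand, the ssRNase lists covered 699, 430 and 444 bases of that strand and 42, 6 and 6 of the minus strand. The dsRNase lists covered 2425, 2495 and 2460 bases of the plus strand and 134, 169 and 42 of the minus strand. The part of strand assignment in the antisense cover was not tested. The minus strand opposite the plus-strand protein genes was covered over 60.8%, 20.3% and 26.1% with ssRNase and over 23.8%, 30.3% and 29.1% with dsRNase.

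**Figure D4:**
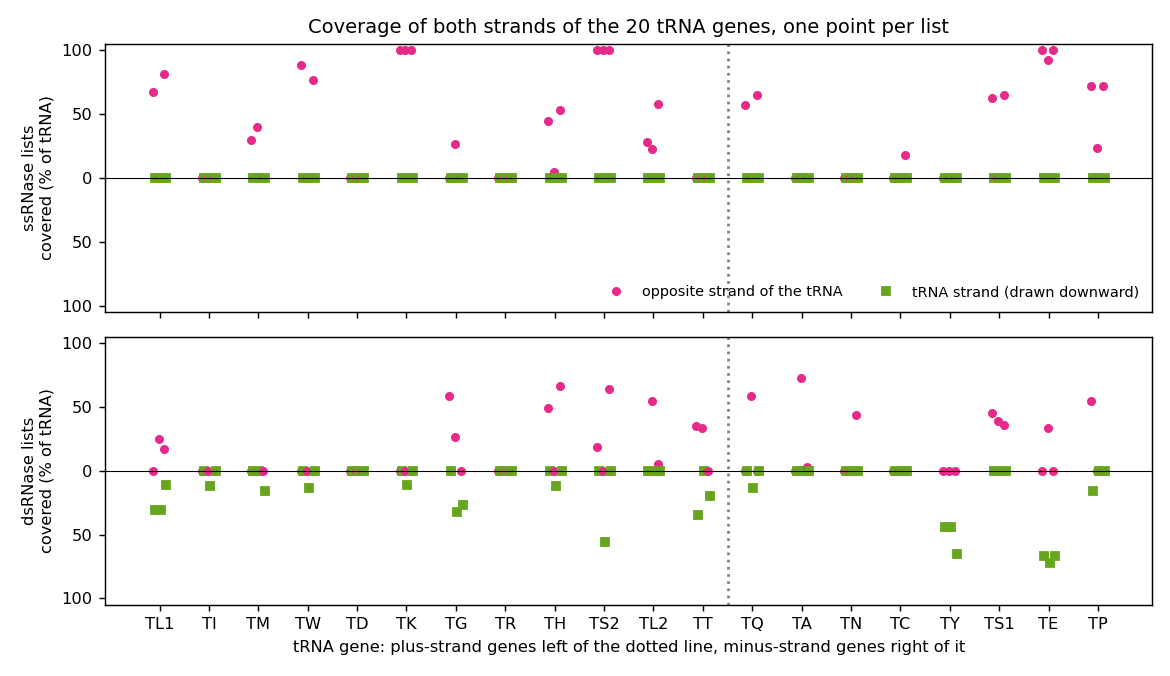
Covered share of the 20 transfer RNA genes in percent, one point per list, ssRNase above and dsRNase below. The strand opposite the transfer RNA is drawn upward in pink and its own strand downward in green. In the ssRNase panel every green point is at 0 and the pink points of TK and TS2 are at 100, while the dsRNase panel has points on both sides.

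Positions recurred between dsRNase lists. Of 6229 positions covered in any dsRNase list, 52.7% were covered in at least 2 and 25.2% in all 3. Of 755 covered in any ssRNase list, 37.4% were covered in at least 2 and 11.1% in all 3. Of the ssRNase positions 64.6% were also covered in a dsRNase list, which is 7.83% of the dsRNase positions, and 0 positions were covered in all 6 lists. On average 69.11% ± 12.6 of the dsRNase sites overlapped a site of another dsRNase list by at least 1 nt (SD over 6 ordered pairs, which share lists). With an overlap of 50% of the site the mean was 60.17%. The same pairs had 57.5% to 67.9% at 1 nt on the minus strand of these positions and 90% to 100% in the ribosomal RNA region. The overlap that dense cover alone would give was not tested.

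The positions covered in all 3 dsRNase lists formed 40 runs with a median length of 37.5 nt, and 39 of them lay in protein genes, with 12 in CO1 and 5 in ND1. The longest, chrM:11738-11860, spanned 123 nt of ND4, and no ssRNase list covered it. It lay inside the best-scoring site of dsRNase replicate 2, chrM:11734-11864. The next were chrM:15751-15822 in CYB with 72 nt and chrM:7878-7946 in CO2 with 69 nt, both without ssRNase cover.

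Further runs among the longest lay in ATP6 (chrM:8690-8748, 59 nt) and in ND5 (chrM:13381-13438, 58 nt; chrM:13218-13272, 55 nt; chrM:12627-12679, 53 nt). Runs tied at 51 nt were chrM:5914-5964 near the start of CO1, chrM:6776-6826 in CO1 and chrM:9921-9971 near the end of CO3. Of these, the CO3 run had a position covered in 1 ssRNase list and the others in none. The best-scoring site of dsRNase replicate 1, chrM:5393-5456, lay in ND2.

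The run chrM:7407-7471, of 65 nt, crossed the boundary of CO1, with 40 nt in the gene and 25 nt on the complement of TS1. The last 50 nt of CO1 had 40, 50 and 41 covered positions with dsRNase and 10, 0 and 0 with ssRNase. A stretch of 27 nt that starts past the end of the gene was covered in at least 2 lists of each nuclease. In ssRNase lists the cover thus lay mainly beyond the reading frame and in dsRNase lists on both sides of its end.

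The ATP8/ATP6 overlap was the other place in which at least 2 lists of each nuclease coincided, from 8494 to 8550, and this run of 57 nt held part of the shared frame. The 46 nt of the printed stretch had 36, 0 and 23 covered positions with ssRNase and 46, 26 and 46 with dsRNase. The sites were 8494-8563 and 8493-8550 in ssRNase replicates 1 and 3, and 8494-8591, 8497-8553 and 8493-8607 in the dsRNase lists. Their starts lay within 4 nt of each other in all 5 lists. The site was the best-scoring one of the region in ssRNase replicate 3 and dsRNase replicate 3, at percentiles 99.6 and 98.6 of the scores of its list, whereas in ssRNase replicate 1 it stood at percentile 51.7.

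The ssRNase lists shared 2 runs, both on complements of transfer RNAs. The run chrM:14680-14746, 67 nt, covered 64 positions opposite TE and 3 of the spacer beside it. The run chrM:15956-15972, 17 nt, lay opposite TP.

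Covered bases were also set against the neighbours of the region. The ratio of its covered bases to those of the ribosomal RNA region had a mean log2 of -0.8905 ± 1.27 for ssRNase and 0.5467 ± 0.404 for dsRNase (SD, n = 3 each). The difference of 1.437 was without overlap between lists (exact permutation p = 0.1), and without ssRNase replicate 2, the list with 84 bases, it was 0.7045. The dsRNase lists covered 2425 to 2495 bases of the ribosomal RNA region, whose genes measure 2513 nt together, so that cover there had almost no room to rise further and the ratio does not show a larger response of the messenger RNAs. On the minus strand of the same positions, 7481, 2539 and 3261 bases were covered with ssRNase and 3068, 3815 and 3615 with dsRNase, so that the ranges overlapped. The log2 ratio to that strand was -3.843 ± 0.952 for ssRNase and 0.04426 ± 0.262 for dsRNase (SD, n = 3), a difference of 3.888 (exact permutation p = 0.1). Of the plus-strand positions covered with dsRNase, 33.8%, 31.6% and 33.4% were also covered on the minus strand of the same list, and 30.5%, 0% and 4.49% with ssRNase.

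Windows of 1000 nt pointed one way along the whole transcript. In a limma fit over the 49486 stranded windows of the genome that had a site in at least 3 lists, on log2(site bases per 1000000 + 20), 13 of 13 tested windows of the region passed an adjusted p of 0.05, all higher with dsRNase. Of all 49486 windows 26.3% passed in either direction and 7.79% were higher with dsRNase. Differences ran from 2.604 (SE 0.2368, adjusted p = 0.005871) between 14001 and 15000, the window with the complement of TE, to 4.624 (SE 0.2196, adjusted p = 0.003467) between 7001 and 8000, which holds the end of CO1 and part of CO2. In that window the values per 1000000 were 8.24, 0 and 5.554 with ssRNase and 478.5, 607.7 and 672.1 with dsRNase. Each of the 13 windows had a site in every dsRNase list and met the filter through these lists alone, so that their passing carries no support. The window from 6001 to 7000 had no site in any ssRNase list. With a site in at least 1 list as the filter, 13 of 14 windows of the region passed, all higher with dsRNase. In all, 11488 of 173025 passed, of which 3271 were higher with dsRNase. A filter of at least 4 lists needs a site with both nucleases. It left 12 windows of the region, which all passed and were higher with dsRNase. Over the whole genome 1759 of 19326 passed under it, 1739 of them higher with dsRNase. Apart from 22.98 in ssRNase replicate 2 between 14001 and 15000, every ssRNase value lay below the pseudocount of 20. The size of the differences therefore depends on the pseudocount.

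With gene intervals in place of these windows, 11 of 14 tested intervals passed in the limma fit, the 10 protein genes and the complement of ND6, against 26.3% of all windows in either direction and 7.78% higher with dsRNase. Each of the 11 intervals that passed had a site midpoint in every dsRNase list. These intervals met the filter through the dsRNase lists alone, so that their passing carries no support. CO1 and ND2 had no ssRNase site midpoint, so that their difference is set by the pseudocount. In the other intervals that passed, every ssRNase value lay below the pseudocount, and the size of their differences depends on it. Among the intervals that passed, CYB differed by 4.199 (SE 0.1678, adjusted p = 0.003251) and ND3 by 2.658 (SE 0.2144, adjusted p = 0.005537). The complement of TE differed by -0.3242 (SE 0.3765, adjusted p = 0.611). Its values per 1000000 were 7.259, 22.98 and 9.133 with ssRNase and 0, 23.49 and 0 with dsRNase. The complements of TP and TQ did not pass either, with differences of 0.2615 and 0.3779 (adjusted p = 0.7717 and 0.6717). No plus-strand transfer RNA had a site midpoint in at least 3 lists.

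Sites on a stretch of chromosome 1 largely coincided with those on the mitochondrial genome. The nuclear genome holds old copies of mitochondrial DNA, and in this build a long one lies near the start of that chromosome. Between chr1:564465-570293, 1679 of the 1702 plus-strand bases covered in any dsRNase list (98.6%) coincided with covered mitochondrial bases after a shift of 560549. The share was lower for dsRNase sites of the minus strand (87.5%) and for ssRNase sites (91.6% on the minus strand, and 82.5% on the plus strand at a shift of 560548). At another shift the most shared bases were 1216 of 1702 for dsRNase on the plus strand and 712 of 943 on the minus strand. For ssRNase they were 124 of 212 on the plus strand and 1847 of 2355 on the minus strand. By list the plus-strand dsRNase share was 96.6%, 95.8% and 97.1%. The stretch corresponds to mitochondrial positions 3916 to 9744. Protein genes inside it were covered over 25.3%, 43.8% and 39.5% with dsRNase and those outside over 19.8%, 36.4% and 29.4%. The sources used here do not say how reads that fit both places were assigned, and its part in the covered shares was not tested.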

How the data were processed

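Each deposited list holds a position, strand and score per site. The tools cutadapt 0.9.5 and TopHat2 2.0.9 and the build hg19 are named in the submitters' processing notes. The authors' site calls carry CSAR and a false discovery rate of 5% in their names, per the labels. The score is the authors' deposited value on a scale that the sources used here do not state, and it only ranked sites within a list. Per the labels' protocols a duplex-specific nuclease step was applied to the libraries, which lowers abundant sequences. The 3 merged lists were not used.

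Positions were read as 1-based with both ends counted. Gene intervals were written by hand from textbook knowledge in hg19 mitochondrial numbering, because no annotation of this build was at hand. Order, strand and length were checked against GENCODE release 29 and were equal for 33 of 33 genes, and boundaries may be off by 1 or 2 nt. The printed sequences come from the transcripts of that release, which belong to another build.

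Values per list (3 per nuclease) were compared by a two-sided exact permutation test, with no adjustment over the 32 intervals. Windows were fitted with limma 3.58.1 (R 4.3.3; lmFit, eBayes) with Benjamini-Hochberg adjustment, without a replicate block, if at least 3 of 6 lists had a site. The site's midpoint set its window. The window at the limit held only sites of the region. This code was tested on simulated data. All protein genes were named, the 5 transfer RNAs of largest covered share, the 10 longest runs, and the longest and best-scoring sites. Other steps ran in Python 3.11.15 with pandas 2.3.3, numpy 2.4.6, matplotlib 3.10.9 and scipy 1.17.1. The region and these rules were chosen with earlier results of these data known. Sums by complex, both-strand values of transfer RNAs, the ATP8/ATP6 and CO1 details and the chromosome 1 stretch were chosen after seeing the data. Alternatives were other thresholds, scalings, list lengths, boundaries, window sizes and left-out lists. Shared replicate numbers were checked by the correlation of deviations between lists.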

Additional observations from a re-analysis of the deposited data

How the results depend on the processing

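The median site length reversed to -6.667 nt (dsRNase minus ssRNase, exact permutation p = 0.4; means 47.33 and 54 nt) with the same number of best-scoring sites from every list, which leaves 2 or 3 ssRNase sites per list. Windows that passed numbered 25 of 26 at 500 nt and 2 of 2 at 10000 nt, where the window size sets the number tested. Over the whole genome 11884 of 52591 passed at 500 nt, 4222 of them higher with dsRNase. At 10000 nt 10564 of 31433 passed, 2215 of them higher with dsRNase. The 104 other recomputed values of the main comparisons and 130 of single genes kept their direction or, for counts, a similar size. No exact test of 3 lists against 3 can pass 0.05, and its p = 0.1 states only that the lists did not overlap. With the better-scoring 50% of sites, CO2 lists came to overlap (exact permutation p = 0.4), which left 9 of 10 protein genes without overlap. The transfer RNA ratio came to differ without overlap in that setting (-1.876, exact permutation p = 0.1) and with the same number of sites (-1.595, exact permutation p = 0.1). One alternative, which left ND6 out of the other-strand genes, was added after seeing the data.

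Leaving out 1 list in turn gave 53.17 to 68.67 more sites and 2846 to 3865 more covered bases with dsRNase, log2 differences per 1000000 of 6.243 to 6.824, and median lengths 5.583 to 8.833 nt longer. The number of protein genes without overlap stayed at 10. The share opposite other-strand genes differed by -72.83 to -43.3 percentage points, the log2 ratio to the ribosomal RNA region by 0.7045 to 1.839, that to the minus strand by 3.35 to 4.257 and that of transfer RNAs to protein genes by -1.267 to -0.1685. By limma 12 windows passed in every such fit, of 13 tested without an ssRNase list and 12 without a dsRNase list. Over the whole genome, 180 of 20145, 79 of 27546 and 101 of 21045 windows passed without ssRNase replicate 1, 2 and 3. Without dsRNase replicate 1, 2 and 3, 7942 of 45885, 8882 of 45036 and 8380 of 46779 passed. Of these, 4259, 4294 and 4463 were higher with dsRNase. With all lists 13017 of 49486 passed. The passing windows of the region are among these totals.

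With the replicate number as a block, 13 of 13 windows of the region passed while 344 of 49486 passed in all, and the paired log2 difference was 6.553 (exact permutation p = 0.25, the smallest 3 pairs allow). Deviations of lists with the same number correlated at 0.00582, -0.041 and -0.0323, so that these lists showed no shared deviation over the windows. Whether they came from the same culture cannot be read from these values.

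Read depth is unknown, so an interval without a site has none listed, which is not a measured absence.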

Other observations

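Cover along the protein genes was uneven with dsRNase. With every gene divided into 5 equal parts from its start, a division chosen after seeing the data, the covered share was 29.9% ± 7.77, 22.6% ± 8.85, 36.7% ± 9.66, 32.3% ± 15.7 and 38.8% ± 3.23 (SD, n = 3 each). In the last of these the lists had 35.2%, 39.6% and 41.5%, and in the part after the first 13.3%, 30.9% and 23.7%, so that these ranges did not overlap. These are the parts of highest and lowest mean, picked after seeing the values. In dsRNase replicate 2 parts 3 and 4, with 45.7% and 46.8%, stood above the last. With ssRNase the means lay between 0.879% and 3.21%. No test was made of these values.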
